A study of Mus musculus with 72 samples.

Results

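The arrays described here are those of bone marrow from a transgenic PML/RARA model of acute promyelocytic leukaemia (APL) at 6 h, with or without retinoic acid (RA). They were chosen by their labels (model transgenics, fusion protein PML/RARA, time 6 h) and number 12 of the 72 arrays of the series: 8 treated with RA and 4 untreated. All 12 carry the PML/RARA fusion protein on a background labelled WT, and all are total RNA of bone marrow samples kept frozen. The labels split them into batch 1, with 6 RA and 2 untreated arrays, and batch 2, with 2 RA and 2 untreated arrays. The sources used here state no RA dose or route, strain, age or transgene promoter. Whether arrays come from separate animals or leukaemias is not said either, and p-values therefore reflect array-to-array spread alone, which may be technical. Array numbers (untreated 1 to 4, RA 1 to 8) are names in accession order and pair nothing. For comparison the text uses 12 arrays of the same model at 12 h (8 RA, 4 untreated) and 6 arrays of a transgenic PLZF/RARA model at 6 h (4 RA, 2 untreated), all of batch 1 and on the same background.

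APL cells are arrested at the promyelocyte stage, when the granules that hold myeloperoxidase and elastase are made. The PML/RARA fusion joins the PML protein to the retinoic acid receptor alpha and represses genes that this receptor would otherwise switch on. RA binds the receptor part, releases corepressors, and in time leads to degradation of the fusion and to granulocyte differentiation. PLZF/RARA joins the same receptor to another partner, and leukaemias with it are known to respond poorly to RA.

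Levels are log2 values of an Affymetrix Mouse Gene 1.0 ST array, 1 value per gene, and changes are log2 differences (RA minus untreated, with batch as a term) ± the standard error of the limma fit. A gene was called when its Benjamini-Hochberg adjusted p over the 19938 genes was below 0.05. Of these genes, 1158 (5.81%) were called up, 1702 (8.54%) were called down and 2860 (14.3%) were called either way. All 8 RA arrays lay above all 4 untreated arrays in 940 genes (4.71%) and below them in 1546 (7.75%). Counts of called list members below are to be read beside these shares of all genes. Genes named below were mostly chosen by their change or their moderated limma statistic in these same arrays. That their groups do not overlap is therefore no separate support. The median change over all genes was 0.0234. Without untreated array 4 the count of calls was 1774, 805 up and 969 down, and without untreated array 3 it was 998 up and 1088 down. Among calls of at least 1.5-fold the rises were the larger group, with 468 against 353 falls. In bulk tissue, fewer cells of a type and less RNA per cell cannot be told apart.

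Mpo and Elane, defining markers of promyelocytes, were present in every array. Mpo, myeloperoxidase, lay between 13.28 and 13.42 in the untreated arrays and between 13.25 and 13.37 in the RA arrays. Elane, neutrophil elastase, lay between 12.76 and 13.06 without RA and between 12.55 and 13.12 with it. Both pairs of groups overlapped, and neither gene was called (adjusted p of 0.431 and 0.778). Other markers used for promyelocytes and granulocyte precursors did change: Prtn3 was called up, and Ms4a3 and Kit were called down, as given below. Ctsg, cathepsin G, was not called. The first principal component of the 12 arrays held 48.8% of the variance, with the untreated arrays between -30.5 and -22.1 and the RA arrays between -3 (array 3) and 25.6 (array 5). Correlations between arrays ran from 0.98 to 0.998, and no arrays were identical.

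The promoters of Cyp26a1, which encodes the hydroxylase that degrades RA and was the largest rise, and of Rarb, a retinoic acid receptor, are shown because both hold a classical arrangement of receptor half-sites. The sequences are the 250 bases before the RefSeq start on build GRCm38.p6, read on the gene's strand, with the half-sites in capitals. The half-sites searched were AGGTCA, the variant AGTTCA, the variant GGGTCA and the variant GGTTCA, in direct repeat 1, 2 or 5 bases apart on either strand, in these bases and the 50 after the start. The sequence of Cyp26a1 is chr19:37697558-37697807 (plus strand), and that of Rarb is chr14:16575477-16575726 (minus strand).
Cyp26a1: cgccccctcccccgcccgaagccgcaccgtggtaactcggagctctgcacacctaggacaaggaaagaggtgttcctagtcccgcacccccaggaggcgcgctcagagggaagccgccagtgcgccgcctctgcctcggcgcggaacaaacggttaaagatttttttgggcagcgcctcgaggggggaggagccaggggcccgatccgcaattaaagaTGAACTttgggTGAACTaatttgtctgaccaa
Rarb: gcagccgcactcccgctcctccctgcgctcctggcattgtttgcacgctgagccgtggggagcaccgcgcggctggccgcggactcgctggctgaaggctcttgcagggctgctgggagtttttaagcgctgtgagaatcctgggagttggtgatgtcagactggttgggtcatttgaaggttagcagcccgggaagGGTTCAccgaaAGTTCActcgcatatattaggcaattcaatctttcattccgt
In both genes the half-sites are 5 bases apart. The Cyp26a1 pair reads on the opposite strand and lies 32 to 16 bases before the start, and the Rarb pair reads on the gene's own strand 53 to 37 bases before it. Of 23 named and called genes among retinoid metabolism, retinoid receptors, repressors and myeloid factors, 15 were found in the RefSeq promoter table, and 2 of these held a pair. Over all 27025 genes of that table, 0.688% held a pair in at least 1 window. Counted by window, 2 of the 26 windows (7.69%) of the 15 genes held a pair. Over all 32851 windows of that table, 0.588% held a pair at any of the 3 spacings and 0.0974% held one 5 bases apart. A match describes the letters of the window only.

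Cyp26a1 read 5.29, 4.84, 5.05 and 5.12 in untreated arrays 1 to 4 and from 6.12 to 9.44 (median 8.89) in the RA arrays. The groups did not overlap, and the change was 3.42 ± 0.54 (adjusted p = 1.79e-05). The untreated values lie near the lower quartile of all probe sets on these arrays (5.06 to 5.16) and are not shown to be above background. The change can therefore be read as a lower bound only, and the same holds for F3. The RA arrays fell apart: arrays 3 and 4 read 6.48 and 6.12, and the other 6 lay between 8.86 and 9.44. F3, tissue factor, the cell-surface starter of coagulation, had the same shape. It read 5.46, 5.23, 5.38 and 5.11 untreated, 6.66 and 6.55 in RA arrays 3 and 4, and between 8.23 and 8.79 in the others, a change of 2.94 ± 0.43 (adjusted p = 5.14e-06). In all of the 20 largest rises the lowest RA value was that of array 3 (9 genes) or array 4 (11 genes), and in 17 of them these arrays were the lowest pair. Over the 1158 genes called up these arrays were the lowest pair in 27.2%, and over all genes in 6.89%. Over the 1702 genes called down they were the highest pair in 27%, and over all genes in 8.18%. In 13 of the 20 largest falls array 3 (8 genes) or array 4 (5 genes) was the highest RA array, and in 5 they were the highest pair. Leaving out both, a choice made after seeing these values, gave 3217 calls, 1266 up and 1951 down, of which 2759 were shared with the 2860. In each of the 20 largest rises all 8 RA arrays still lay above all 4 untreated ones. This held for 4.71% of all genes, but these same arrays chose the 20 rises.

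**Figure D1:**
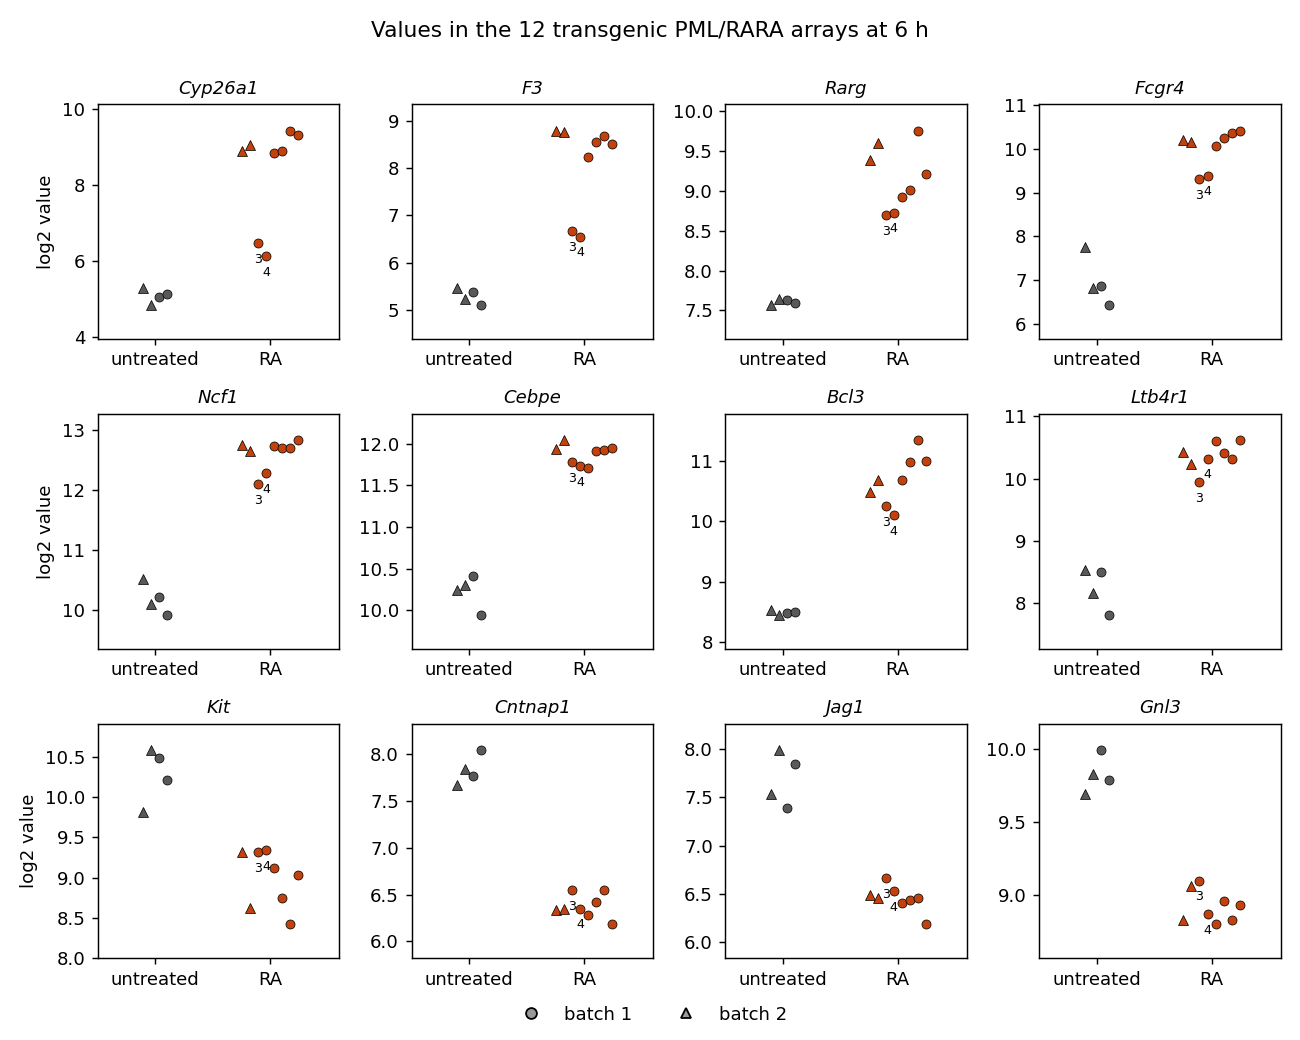
Log2 value (y axis, own scale per gene) of 12 genes in the 4 untreated (grey) and 8 RA (orange) arrays at 6 h, with circles for batch 1, triangles for batch 2, and RA arrays 3 and 4 numbered. The numbered arrays lie below the other RA arrays for Cyp26a1 and F3 and among them or close to them for Cebpe and Kit, and no gene shown has overlapping groups.

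The batches share no array, so the signs come from separate arrays, but the calls within each use 1 estimate of spread from the joint fit and are not independent. Whether the batches share animals or leukaemias is not said, so the independence of the signs is not known either. Within batch 1 alone 1799 genes (9.02%) were called, 733 up and 1066 down, and within batch 2 alone 700 (3.51%), 462 up and 238 down. Of the 1799 genes, 1788 (99.4%) changed in the same direction in batch 2 and 633 (35.2%) were called there. Of the 700 genes called in batch 2, 700 had the same direction in batch 1 and 633 (90.4%) were called. Over all genes the direction was shared by 13964 (70%). The difference between the batches' RA effects was called for 0 genes (0%) by limma, with 175 at an unadjusted p below 0.05, and for 1 gene without untreated array 4.

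**Figure D2:**
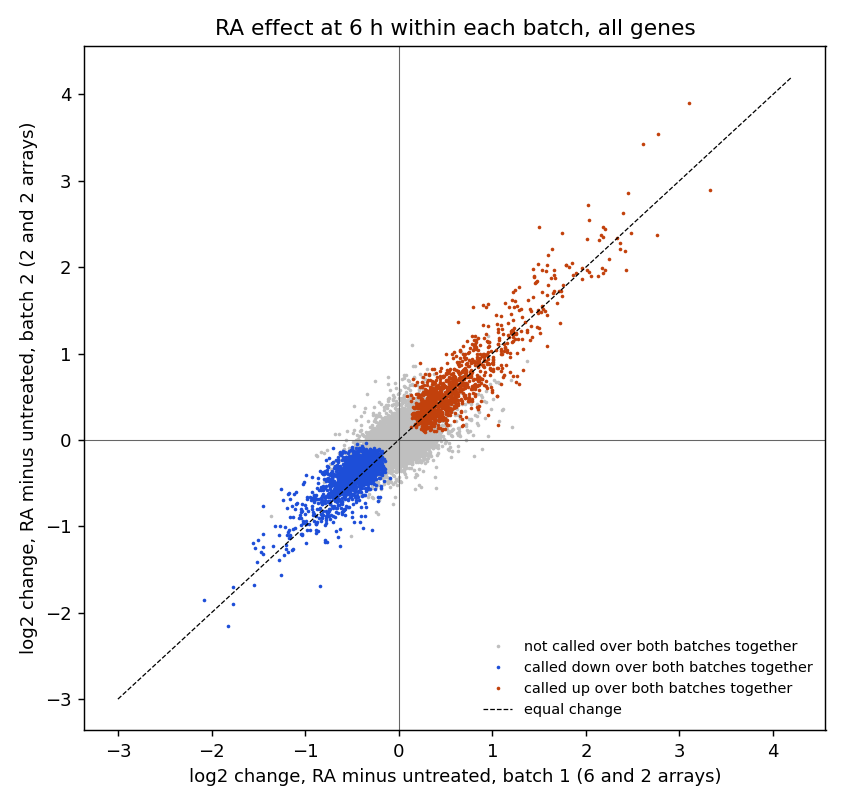
Log2 change of every gene within batch 1 (x axis) and within batch 2 (y axis), coloured by its call over both batches together, with the dashed line marking equal change. The calls lie to the upper right and lower left, and Cyp26a1 is the uppermost point (3.10 in batch 1, 3.90 in batch 2).

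Among 20 genes of retinoid metabolism, 4 rose and 1 fell, with a median change of 0.15. Dhrs3, a reductase that turns retinal back into retinol, was tight in the untreated arrays at 9.22, 9.17, 9.18 and 9.19 and reached 10.84 to 11.73 (median 11.53) with RA. It rose by 2.29 (± 0.20, adjusted p = 8.07e-11) with no overlap. Rdh10, which oxidises retinol on the way to RA, went from 7.87, 8.10, 7.82 and 8 to between 7.28 and 7.63, again without overlap (change -0.45 ± 0.12, adjusted p = 0.00524). Aldh1a1 and Aldh1a2, which make RA from retinal, were called up by 0.77 (± 0.26) and 0.49 (± 0.17), but both overlapped between the groups. The count of rises in this list was 2 without untreated array 2 or 4 or RA array 2 or 5.

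Of 18 retinoid receptors and coregulators, 5 rose and 2 fell. Rarg, retinoic acid receptor gamma, read 7.57, 7.64, 7.63 and 7.59 untreated and 8.70 to 9.76 (median 9.11) with RA, a change of 1.62 ± 0.14 (adjusted p = 9.01e-11) without overlap. Rarb, whose promoter is shown above, read 5.55, 5.56, 5.55 and 5.74 untreated and 5.76 to 6.24 with RA. Its groups came close but did not overlap, and it rose by 0.45 (± 0.09, adjusted p = 0.000436). The untreated values of Rarb are not shown to be above background, so this change can be read as a lower bound only. Ncoa3, a coactivator of nuclear receptors, rose by 0.76 (± 0.09) without overlap. Rxra, the receptor that pairs with the retinoic acid receptors, lay between 9.13 and 9.38 untreated and between 8.62 and 8.93 with RA, a change of -0.48 ± 0.10 (adjusted p = 0.000441). The count of falls was 1 without untreated array 1 or 4 or RA array 1.

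Other genes among the 20 largest rises belong to neither of these retinoid lists. Rap1gap2, which switches off the small GTPase Rap1, read 7.88, 7.71, 7.74 and 7.19 untreated and 8.86 to 10.28 (median 10.07) with RA. It rose by 2.33 (± 0.25, adjusted p = 1.2e-08) without overlap. Ehd1, which drives the return of endocytosed receptors to the cell surface, went from 9.16, 9.11, 9.05 and 8.95 to between 10.46 and 11.66 (2.25 ± 0.20, adjusted p = 4.36e-10). Cass4, a docking protein of focal adhesions, lay between 6.19 and 6.35 in the untreated arrays and between 7.54 and 9.21 with RA (2.30 ± 0.25). Fam20c, a kinase of the secretory pathway, lay between 7.72 and 7.99 and between 9.27 and 10.61 (2.24 ± 0.20). In these genes too no array of one group reached into the other. Cd200r1, an inhibitory receptor of myeloid cells, read 5.67, 5.68, 5.38 and 5.35 untreated and reached 7.02 to 8.37 with RA (2.21 ± 0.21, adjusted p = 1.47e-09). The untreated values of Cd200r1 are not shown to be above background, so this change can be read as a lower bound only. Pram1, an adaptor protein known as a target of PML/RARA that RA induces, read 9.22, 8.77, 8.78 and 8.42 untreated and 10.72 to 11.24 with RA (2.25 ± 0.14, adjusted p = 2.26e-13). Adssl1, an adenylosuccinate synthase, went from 10.50, 9.33, 9.70 and 8.83 to between 11.81 and 12.30 (2.6 ± 0.17), with a wide spread among the untreated arrays. The 20 rises were 4.53-fold or more, and 20 of 20 were called in each batch alone, where those batches are part of the arrays that chose them.

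Of 25 transcription factors of granulocyte and monocyte development, 14 rose and 4 fell, with a median change of 0.36. Cebpe, a factor of late granulocyte development, read 10.24, 10.31, 10.41 and 9.95 untreated and 11.71 to 12.04 (median 11.91) with RA, a change of 1.68 ± 0.10 (adjusted p = 1.28e-13). Cebpa, which commits progenitors to the granulocyte line, went from 8.89, 9.17, 9.22 and 9.20 to between 10.17 and 10.60 (1.32 ± 0.11, adjusted p = 5.46e-11). In both genes the groups did not overlap and the RA arrays lay close together, arrays 3 and 4 included. Spi1, which encodes PU.1, lay between 11.49 and 11.72 and between 12.34 and 12.55 (0.82 ± 0.09, adjusted p = 1.37e-08). Nfe2, a factor of erythroid, megakaryocytic and myeloid cells, lay between 10.31 and 10.47 and between 11.40 and 11.90 (1.29 ± 0.10, adjusted p = 1.81e-11). The mean level of the erythroid markers was 7.85 to 9.54 in the untreated and 8.62 to 10.52 in the RA arrays, and its part in the change of Nfe2 was not tested. The count of falls in this list was 2 without untreated array 4.

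Of 7 genes of the phagocyte NADPH oxidase, the enzyme that makes superoxide, 5 rose and 1 fell, with a median change of 0.58. Ncf1, the organiser subunit p47phox, read 10.53, 10.10, 10.22 and 9.93 untreated and 12.11 to 12.83 (median 12.70) with RA, a change of 2.44 ± 0.18 (adjusted p = 4.42e-12). Ncf4, the p40phox subunit, went from 10.30, 9.89, 10.07 and 9.73 to between 10.99 and 11.63 (1.42 ± 0.13, adjusted p = 7.18e-10). The catalytic membrane subunit Cybb rose by 0.75 (± 0.11), its partner Cyba by 0.38 (± 0.08) and the GTPase Rac2 by 0.58 (± 0.08). None of these 5 had overlapping groups. The fall was Hvcn1, the proton channel that works beside the oxidase (-0.38 ± 0.11), and the count of falls was 0 without untreated array 2 or RA array 2.

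Of 33 phagocyte receptors and adhesion molecules, 13 rose and 6 fell. Fcgr3, an activating receptor for IgG, read 10.17, 9.53, 9.79 and 9.49 untreated and 11.56 to 11.99 (median 11.75) with RA, a change of 2.04 ± 0.13 (adjusted p = 3.75e-13). Fcgr4, another activating IgG receptor, went from 7.76, 6.82, 6.85 and 6.43 to between 9.30 and 10.42 (3.15 ± 0.21, adjusted p = 4.38e-13). The inhibitory receptor Fcgr2b rose by 0.70 (± 0.07), from between 10.84 and 11.32 to between 11.48 and 11.79. Groups stayed apart in all 3 receptors. Itgb2, the shared chain of the leukocyte integrins, rose by 1.53 (± 0.12) and Treml2, a receptor of the TREM family, by 2.10 (± 0.15). Csf3r, the receptor of granulocyte colony-stimulating factor, went down from 11.36, 11.67, 11.63 and 11.87 to between 10.54 and 11.13 (-0.89 ± 0.11, adjusted p = 3.01e-07). Clec4e, a lectin receptor for microbial glycolipids, went from 11, 10.61, 10.28 and 10.62 to between 8.65 and 9.95 (-1.38 ± 0.25, adjusted p = 9.58e-05). In both, every RA array lay below every untreated one.

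Of 23 genes of secondary and tertiary granules, which are made late in granulocyte development, 3 rose and 2 fell, with a median change of 0.01. Ltf, lactoferrin, and Ngp, neutrophilic granule protein, were picked after their values were seen, as classical members. Ltf lay between 11.27 and 11.78 untreated and between 11.44 and 12.50 with RA (adjusted p = 0.396), and Ngp between 12.67 and 12.87 and between 12.75 and 13.05 (adjusted p = 0.458), both with overlap. Padi4, the deiminase that citrullinates histones in neutrophils, went from between 7.11 and 7.68 to between 8.99 and 10.27 (2.30 ± 0.21). The falls were Olfm4 and Hp, haptoglobin, with adjusted p of 0.0373 and 0.0455, and their count was 0 without untreated array 1, 2 or 4 or RA array 1, 2, 3 or 7 and 1 without RA array 5, 6 or 8. Of 18 primary granule genes, 1 rose and 1 fell (11.1% called, beside 14.3% of all genes), with a median of -0.03. Prtn3, proteinase 3, went from 11.59, 11.32, 11.78 and 11.58 to between 12.31 and 12.48 (0.80 ± 0.13, adjusted p = 1.71e-05), and Ms4a3, a membrane protein of granulocyte precursors, fell by 0.60 (± 0.10) with overlapping groups. The count of rises was 2 without RA array 7, and that of falls 2 without RA array 4.

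**Figure D3:**
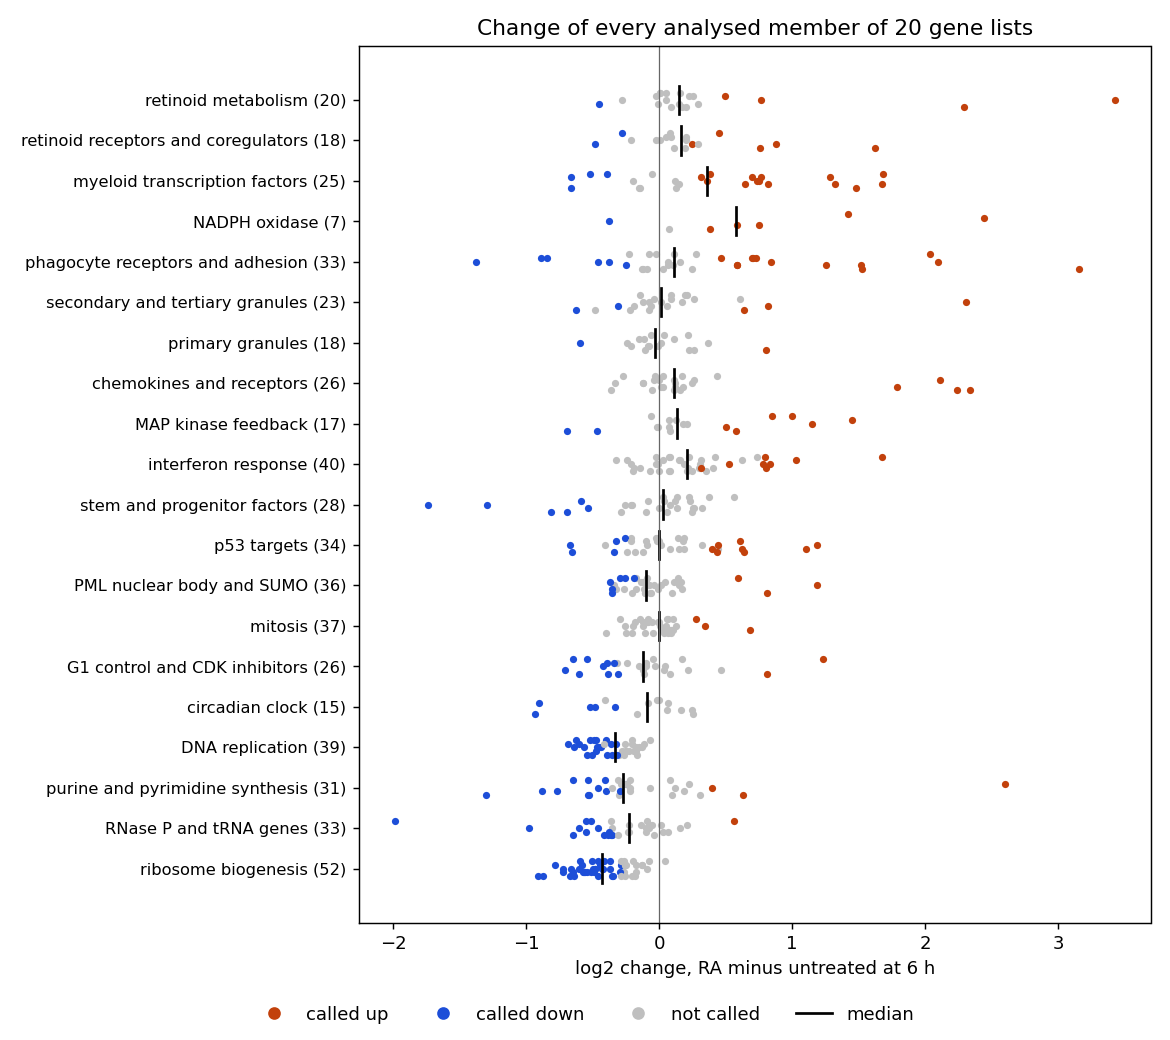
Log2 change (x axis, RA minus untreated at 6 h) of every analysed member of 20 gene lists, with the number of members in brackets, calls in colour and the median as a bar. Medians run from -0.43 for ribosome biogenesis to 0.58 for the NADPH oxidase.

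Of 26 chemokines and chemoattractant receptors, 4 rose and 0 fell. Ltb4r1, the receptor that draws neutrophils to leukotriene B4, read 8.54, 8.17, 8.50 and 7.82 untreated and 9.94 to 10.61 (median 10.37) with RA, a change of 2.11 ± 0.17 (adjusted p = 4.91e-11). Ccl9, a chemokine of myeloid cells, went from 9.54, 9.87, 9.99 and 9.55 to between 11.10 and 11.81 (1.79 ± 0.17, adjusted p = 5.58e-10). Ccrl2, an atypical receptor that binds chemerin, rose by 2.24 (± 0.25) and the chemokine Ccl6 by 2.33 (± 0.19). All 4 had groups that did not overlap.

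Signalling genes rose and fell. Bcl3, an atypical member of the IkB family, was tight at 8.53, 8.46, 8.48 and 8.50 untreated and lay between 10.11 and 11.34 with RA, without overlap (2.18 ± 0.20, adjusted p = 7.18e-10). Nfkbia, which encodes the NF-kB inhibitor IkB alpha, went from 10.03, 9.56, 9.25 and 9.42 to between 10.17 and 11.40 (1.41 ± 0.23, adjusted p = 2.53e-05), and the NF-kB subunit Rel rose by 0.84 (± 0.09). Over 37 genes of interleukin 1, Toll and NF-kB signalling, 5 rose and 4 fell. The count of rises was 3 without untreated array 4, and that of falls 2 without untreated array 1 or RA array 1, 2, 3, 6, 7 or 8 and 1 without untreated array 4. Of 17 genes of MAP kinase feedback, 6 rose and 2 fell, and the falls numbered 1 without untreated array 3 or 4. Dusp5, a phosphatase of ERK, went from 7.56, 7.45, 7.45 and 7.24 to between 7.78 and 9.41 (1.45 ± 0.25, adjusted p = 5.37e-05), and Spred2, an inhibitor of Ras signalling, rose by 1.15 (± 0.16). Of 29 genes of cytokine and JAK-STAT signalling, 8 rose and 2 fell. Pim1, a survival kinase downstream of cytokines, went from 10.82, 10.89, 10.62 and 10.49 to between 11.51 and 12.48 (1.5 ± 0.15, adjusted p = 5.16e-09), and Pim2 of the same family fell by 0.67 (± 0.10, adjusted p = 5.11e-06). Neither kinase had overlapping groups.

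The 20 largest falls were 2.28-fold or more, and 19 of them had groups that did not overlap. All RA arrays lay below all untreated ones in 7.75% of all genes, but these same arrays chose the 20 falls. Cntnap1, a membrane protein known from axon-glia contacts, read 7.67, 7.84, 7.76 and 8.04 untreated and 6.17 to 6.55 (median 6.35) with RA, a change of -1.47 ± 0.13 (adjusted p = 1.24e-10). St8sia4, which adds polysialic acid to glycoproteins, went from 10.70, 10.71, 10.58 and 10.77 to between 8.77 and 9.75 (-1.43 ± 0.14, adjusted p = 3.94e-09). Nt5e, the ectoenzyme CD73 that makes adenosine, went from 12.11, 12.37, 12.00 and 12.24 to between 9.80 and 11.16 (-1.30 ± 0.17, adjusted p = 6.77e-07). All 3 fell with every RA array below every untreated one. Il12a, a subunit of interleukin 12, fell by 1.41 (± 0.18), Tle1, a corepressor, by 1.27 (± 0.16) and Ascl2, a helix-loop-helix factor, by 1.32 (± 0.14). Jag1, a Notch ligand, went from 7.54, 7.99, 7.39 and 7.85 to between 6.18 and 6.66 (-1.23 ± 0.13, adjusted p = 1.49e-08), whereas the receptor Notch1 rose from between 9.15 and 9.46 to between 10.12 and 10.60 (1.10 ± 0.12, adjusted p = 2.2e-08). Over 34 Notch and TGF-beta genes 5 rose and 5 fell, and the falls numbered 3 without untreated array 3 and 2 without untreated array 4. Ms4a4c, a membrane protein of the MS4A family, was the fall with overlapping groups: RA array 4 read 8.36, above the lowest untreated value of 8.29.

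Of 28 stem and progenitor genes 6 fell and 0 rose, with a median change of 0.03. Kit, the receptor of stem cell factor, went from 9.82, 10.58, 10.48 and 10.21 to between 8.42 and 9.34 (-1.29 ± 0.16, adjusted p = 3.75e-07). Adgrg1, an adhesion receptor of stem cells, went from 10.47, 11.13, 10.90 and 10.98 to between 9.93 and 10.24 (-0.81 ± 0.12, adjusted p = 4.9e-06). Gata2, a stem cell transcription factor, fell by 0.70 (± 0.16, adjusted p = 0.00208). No group of these genes overlapped the other. The count of rises was 1 without untreated array 3 or RA array 3 and 2 without RA array 7.

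Genes that build ribosomes fell widely. Of 52 analysed, 34 fell and 0 rose, 1 had a change above 0, 37 had all RA arrays below all untreated ones, and the median change was -0.43. Within batch 1 alone 30 were called down (median -0.48), and within batch 2 alone 6 (median -0.34), beside 1066 and 238 of all genes. The mean level of the list was 9.56 to 9.68 in the untreated arrays and 9.02 to 9.34 in the RA arrays. Gnl3, nucleostemin, read 9.69, 9.83, 9.99 and 9.79 untreated and 8.80 to 9.10 (median 8.90) with RA, a change of -0.91 ± 0.14 (adjusted p = 6.5e-06). Polr1b, a large subunit of RNA polymerase I, went from 10.08, 10.35, 10.43 and 10.27 to between 9.44 and 9.83 (-0.72 ± 0.12, adjusted p = 2.49e-05). Nop56, a core protein of the small nucleolar particles that methylate ribosomal RNA, went from 11.32, 11.50, 11.55 and 11.42 to between 10.60 and 11 (-0.61 ± 0.10, adjusted p = 3.92e-05). None of the 3 overlapped between the groups. Myc, known as a driver of ribosome production, went from 12.34, 12.38, 12.19 and 12.20 to between 11.44 and 11.80 (-0.66 ± 0.10, adjusted p = 1.14e-05), and its antagonist Mxd1 was called up by 0.92 (± 0.14) with overlapping groups. Over the 12 genes of the Myc network 1 rose and 2 fell.

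Of 33 genes of RNase P and transfer RNA, 13 fell and 1 rose. The falls numbered 8 without untreated array 3, and the rises 2 without RA array 1 or 5. Rpp25, a protein of RNase P and RNase MRP, was the largest fall of all named genes, from 8.19, 8.67, 9.08 and 8.85 to between 6.53 and 7.19 (-1.99 ± 0.24, adjusted p = 1.94e-07). Rpp40 of the same particles went from 6.59, 6.80, 7.03 and 6.94 to between 5.51 and 6.16 (-0.98 ± 0.16, adjusted p = 2.65e-05). The RA values of Rpp40 are not shown to be above background, so the size of its fall can be read as a lower bound only. The rise was Wars, the tryptophan transfer RNA ligase (0.56 ± 0.12). Of 31 genes of purine and pyrimidine synthesis, 12 fell and 3 rose, with a median of -0.27. Gart and Ppat, of purine synthesis, fell by 0.77 (± 0.09, adjusted p = 6.71e-08) and 0.65 (± 0.10, adjusted p = 1.29e-05), and Dhodh, of pyrimidine synthesis, by 0.54 (± 0.09, adjusted p = 5.32e-05). Adssl1, described above, was among the rises. Of 44 mitochondrial ribosome genes 6 fell and 0 rose, so 13.6% were called, beside 14.3% of all genes called either way and 8.54% called down. Of 20 heat shock and chaperonin genes 6 (30%) fell, among them Hspd1, the mitochondrial chaperonin (-0.62 ± 0.10), and 0 rose.

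Of 39 DNA replication genes, 20 fell and 0 rose, 0 had a change above 0, and the median was -0.33. Within batch 1 alone 16 were called down (median -0.35), and within batch 2 alone 0 (median -0.31), beside 1066 and 238 of all genes. The falls numbered 14 without untreated array 3. Mcm2, of the replicative helicase, read 10.95, 11.13, 11.13 and 11.06 untreated and 10.35 to 10.71 (median 10.51) with RA, a change of -0.57 ± 0.11 (adjusted p = 0.000304). Cdc45, a helicase cofactor, lay between 9.94 and 10.16 and between 9.33 and 9.80 (-0.55 ± 0.11, adjusted p = 0.000656). Both had groups that did not overlap. Of 37 mitotic genes, 3 rose and 0 fell (8.1% called, beside 14.3% of all genes), with a median of 0.00. The rises numbered 1 without untreated array 2. Cdc25b, a phosphatase that starts mitosis, rose by 0.68 (± 0.13, adjusted p = 0.000211). The difference between the replication and mitosis lists was not tested. Of 26 genes of G1 control, 9 fell and 2 rose. E2f1, which drives entry into S phase, lay between 9.53 and 9.75 and between 8.82 and 9.26 (-0.60 ± 0.10, adjusted p = 1.88e-05). The rises were inhibitors of cyclin-dependent kinases: Cdkn2d went from 8.12, 7.77, 7.80 and 7.58 to between 8.24 and 9.46 (1.23 ± 0.16, adjusted p = 8.65e-07), and Cdkn1c rose by 0.81 (± 0.13).

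Pml, the partner gene of the fusion and an organiser of nuclear bodies, read 9.50, 9.49, 9.69 and 9.56 untreated and 10.60 to 10.98 (median 10.78) with RA, a change of 1.18 ± 0.12 (adjusted p = 1.46e-09) without overlap. Over 36 genes of the nuclear body and of SUMO conjugation, 3 rose and 6 fell, and the falls numbered 1 without untreated array 4. Over 34 known p53 targets, 8 rose and 5 fell, with a median of 0.00. The rises numbered 5 without untreated array 4, and the falls 3 without untreated array 2 or 3. Mdm2, the ligase of p53, rose by 0.44 (± 0.07, adjusted p = 5.96e-05), and Xpc, a DNA damage sensor, fell by 0.67 (± 0.14, adjusted p = 0.000536). Over 34 genes of the Bcl2 family and cell death, 10 rose and 3 fell. The rises numbered 6 without untreated array 4, and the falls 0 without untreated array 3 or 4. Bak1, which promotes cell death, rose by 0.60 (± 0.08) and Mcl1, which protects from it, by 0.37 (± 0.09). Of 40 interferon response genes, 8 rose and 0 fell, and the rises numbered 3 without untreated array 4. Irf1, a factor of that response, read 8.67, 8.84, 8.72 and 8.52 untreated and 9.80 to 10.60 with RA (1.67 ± 0.15, adjusted p = 4.14e-10).

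Of 15 clock genes, 5 fell and 0 rose, and the falls numbered 3 without untreated array 4. Nr1d1, the repressor Rev-erb alpha, went from 7.64, 7.91, 8.40 and 8.06 to between 7.01 and 7.42 (-0.90 ± 0.15, adjusted p = 4.66e-05), and Per1 from 9.80, 8.92, 9.29 and 9.44 to between 7.93 and 8.87 (-0.93 ± 0.23, adjusted p = 0.0036). The groups of both stayed apart. The labels used here give no time of day for the samples. Of 40 genes of chromatin silencing, 15 fell and 2 rose, and the falls numbered 8 without untreated array 4. Within batch 1 alone 12 were called down (median -0.20), and within batch 2 alone 0 (median -0.11). The rises were the histone demethylases Kdm6b (0.79 ± 0.10, adjusted p = 6.77e-07) and Kdm5b (0.55 ± 0.09, adjusted p = 4.8e-05). Suox, sulphite oxidase, went from 6.88, 6.62, 7.12 and 6.58 to between 8.54 and 10.43 (3.08 ± 0.34, adjusted p = 2.39e-08). Ctsd, the lysosomal protease cathepsin D, lay between 11.21 and 11.59 and between 12.62 and 12.99 (1.35 ± 0.11, adjusted p = 2.36e-11). Fasn, fatty acid synthase, lay between 10.55 and 10.88 and between 10.00 and 10.28 (-0.68 ± 0.08, adjusted p = 3.33e-08). None of the 3 metabolic genes overlapped between the groups. Of 21 glycolysis genes 6 rose and 0 fell, with Pfkl, a phosphofructokinase, up by 0.70 (± 0.12).

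At 12 h all of the 20 largest rises and all of the 20 largest falls had the same sign and were called, against 21.6% of all genes called at 12 h. The 12 h arrays do not enter the 6 h changes, but the joint fit takes each gene's spread from both times. The calls that chose these genes and the calls at 12 h share that spread and are not independent. The median change was 2.32 at 6 h and 2.52 at 12 h for the rises, and -1.36 and -1.35 for the falls. The RA effect itself differed between the times for 46 genes (0.231%), 32 more positive at 12 h and 14 more negative, and for none of those 40 (limma, adjusted p below 0.05; 1622 of all genes differed at an unadjusted p below 0.05). With the values quantile normalised again the split was 31 and 28. The count was 19 without RA array 2, 22 without untreated array 1 or 4, 24 without untreated array 3, 28 without RA array 1 and 83 without RA array 4. All 12 h arrays are of batch 1, and with batch 1 alone the count was 0, with 1253 genes at an unadjusted p below 0.05.

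The genes named for a difference between the times were chosen by that test. Il1f9, a cytokine of the interleukin 1 family, was not called at 6 h (0.79 ± 0.30) and had a change of 3.24 ± 0.29 at 12 h, a difference of 2.46 ± 0.41 (adjusted p = 0.00514). Slco4c1, a transporter of organic anions, had changes of 0.70 ± 0.21 at 6 h and 2.58 ± 0.21 at 12 h (adjusted p of the difference 0.0046). Untreated array 1 stood apart for Slco4c1 at 6 h with 8.36 (next 7.36). The 6 h change of this gene ran from 0.17 to 1.10 over 25 alternatives, and its call was lost in 5 of them. Olfm4, a granule glycoprotein of neutrophils, turned from -0.63 ± 0.21 at 6 h to 0.75 ± 0.20 at 12 h (adjusted p of the difference 0.0236). Id1, which blocks DNA binding by helix-loop-helix partners, rose at 6 h (0.96 ± 0.18) and was not called at 12 h (-0.26 ± 0.18, adjusted p = 0.369; adjusted p of the difference 0.022). Lrrc8b, a subunit of volume-regulated anion channels, read 8.95, 9.24, 9.40 and 9.21 untreated and 9.84 to 10.56 with RA at 6 h (0.98 ± 0.12), and its change at 12 h was -0.06 ± 0.12 (adjusted p of the difference 0.0046).

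**Figure D4:**
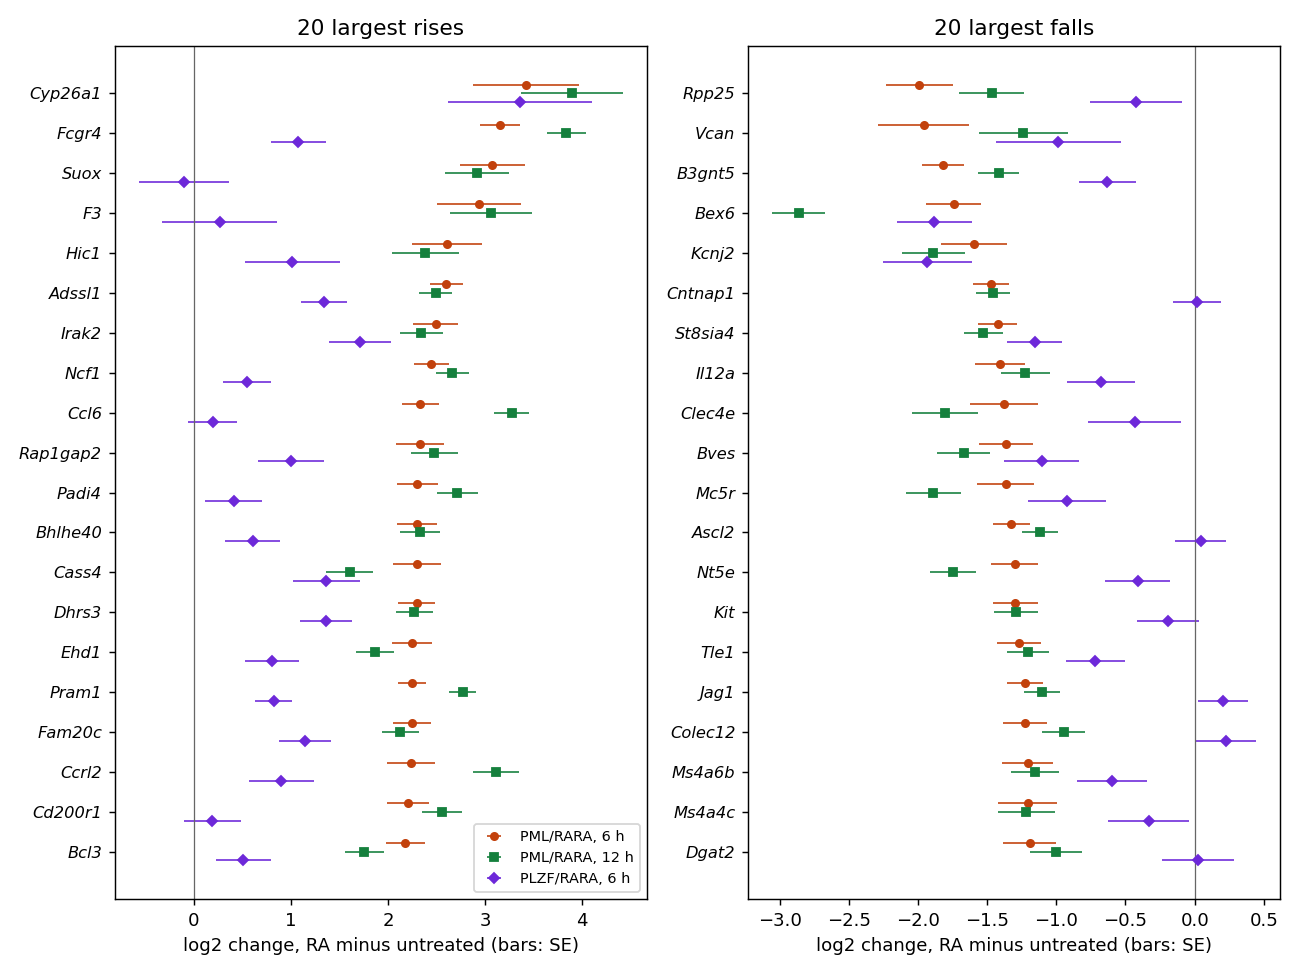
Log2 change with RA (x axis, bars ± SE) of the 20 largest rises and the 20 largest falls at 6 h, beside the same genes in PML/RARA marrow at 12 h and in PLZF/RARA marrow at 6 h. The 12 h points lie on the same side of 0 as the 6 h points for all 40 genes, and the PLZF/RARA points lie nearer to 0 than the 6 h points for all but Bex6 and Kcnj2.

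With PLZF/RARA, 439 genes (2.20%) were called at 6 h from 4 RA and 2 untreated arrays. Of the 20 largest rises of PML/RARA marrow, 19 had the same sign there and 8 were called, with a median change of 0.86, and of the 20 falls 15 had the same sign and 4 were called, with a median of -0.52. The difference between the fusions' RA effects was called for 302 genes (1.51%), 180 more positive with PML/RARA and 122 more negative. The split was 242 and 103 with the values quantile normalised again and 210 and 85 with arrays centred on their median. All PLZF/RARA arrays are of batch 1, and with batch 1 alone the count was 119, 84 more positive and 35 more negative. The count was 129 without untreated array 4, 178 without untreated array 2 and 489 with array weights. Of the 20 rises 11 were among the 302, and of the 20 falls 8; these genes had been chosen for a large change with PML/RARA, which the difference shares.

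Suox changed by 3.08 ± 0.34 with PML/RARA and by -0.10 ± 0.46 with PLZF/RARA, a difference of 3.18 ± 0.57 (adjusted p = 0.00174). Cd200r1 changed by 2.21 ± 0.21 and 0.19 ± 0.29 (adjusted p of the difference 0.00164), and Ncf1 by 2.44 ± 0.18 and 0.55 ± 0.25 (adjusted p of the difference 0.000575). The limit given above for the PML/RARA change of Cd200r1 applies to its difference too. Cntnap1 changed by -1.47 ± 0.13 with PML/RARA and by 0.02 ± 0.17 with PLZF/RARA (adjusted p of the difference 0.000183). Klf9, a zinc finger factor, read 9.63, 9.54, 9.35 and 9.28 untreated and 8.05 to 8.74 with RA in PML/RARA marrow. Its change was -0.96 ± 0.15 there and 0.65 ± 0.20 in PLZF/RARA marrow (adjusted p of the difference 0.000434). Bhlha15, a factor of secretory cells, had changes of 0.92 ± 0.23 and -1.04 ± 0.32 (adjusted p of the difference 0.00449). Cyp26a1 had changes of 3.42 ± 0.54 and 3.36 ± 0.74, and the difference of 0.06 ± 0.92 is too wide to show that they act alike (adjusted p = 0.991). Bex6, a brain-expressed X-linked family gene, had changes of -1.74 ± 0.20 and -1.88 ± 0.27, and Kcnj2, a potassium channel, of -1.60 ± 0.24 and -1.93 ± 0.32. Ribosome biogenesis genes had a median change of -0.43 with PML/RARA at 6 h, -0.46 at 12 h and -0.07 with PLZF/RARA, and DNA replication genes -0.33, -0.55 and 0.18. The medians of the NADPH oxidase genes were 0.58, 0.80 and 0.06, and no difference between these medians was tested.

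Marker lists of other marrow cells overlapped between the groups in their mean level. Erythroid markers (12 genes) had changes above 0 in 12 genes, with a median of 0.78, and 1 was called, Klf1, an erythroid transcription factor (0.77 ± 0.24, adjusted p = 0.0262). The count of calls was 0 without untreated array 2 or 4 or RA array 2, 6 without untreated array 3 and 5 without RA array 7. It was 10 of 12 (median 0.97) with the untreated arrays of 6 h and 12 h as 1 control group, 7 with array weights, 3 with brighter genes only, 2 with an intensity trend, and 0 with the 12 arrays alone or within either batch. B cell markers (15 genes, 0 called up) lay at 6.52 to 7.36 untreated and 6.79 to 8.04 with RA, and the count was 1 without untreated array 2 and 2 without untreated array 3. It was 10 of 15 (median 0.51) with the pooled untreated arrays, 3 with no batch term or with array weights, and 1 with a random batch block, within batch 1 or with brighter genes only. RA array 5 held the highest erythroid and B cell levels, and untreated array 4 the lowest. Megakaryocyte and platelet markers (11 genes, 0 called) lay at 8.97 to 9.30 and 8.91 to 9.80. Their changes were above 0 in 11 genes, with a median of 0.24, which was 0.01 within batch 1 and 0.70 within batch 2. In batch 2 the untreated arrays read 8.97 and 9.30 and the RA arrays 9.80 and 9.76, without overlap. The count called up was 4 with array weights and 2 with the pooled untreated arrays. T and NK cell markers (15 genes, 1 down) lay at 7.17 to 7.62 and 7.14 to 7.45, and the falls numbered 2 without untreated array 1 and 0 without untreated array 3 or 4 or RA array 2. Monocyte and macrophage markers (16 genes, 1 up and 3 down) lay at 9.11 to 9.14 and 8.87 to 9.26, and the rises numbered 0 without untreated array 2 or 4 or RA array 4, 5 or 6. Markers of eosinophils, basophils and mast cells (15 genes, 1 down) lay at 7.45 to 7.88 and 7.55 to 8.10; the falls numbered 2 without RA array 6 and the rises 1 without untreated array 3 or RA array 7. Of 15 stromal and endothelial markers, at 6.96 to 7.42 and 7.01 to 7.51, 1 was called, and 2 without RA array 3. It was Pdgfrb, a receptor of stromal cells, which went from 8.79, 9.28, 8.82 and 9.24 to between 9.35 and 10.66 (1.16 ± 0.20, adjusted p = 3.99e-05). The part of these levels in the results above was not tested.

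**Figure D5:**
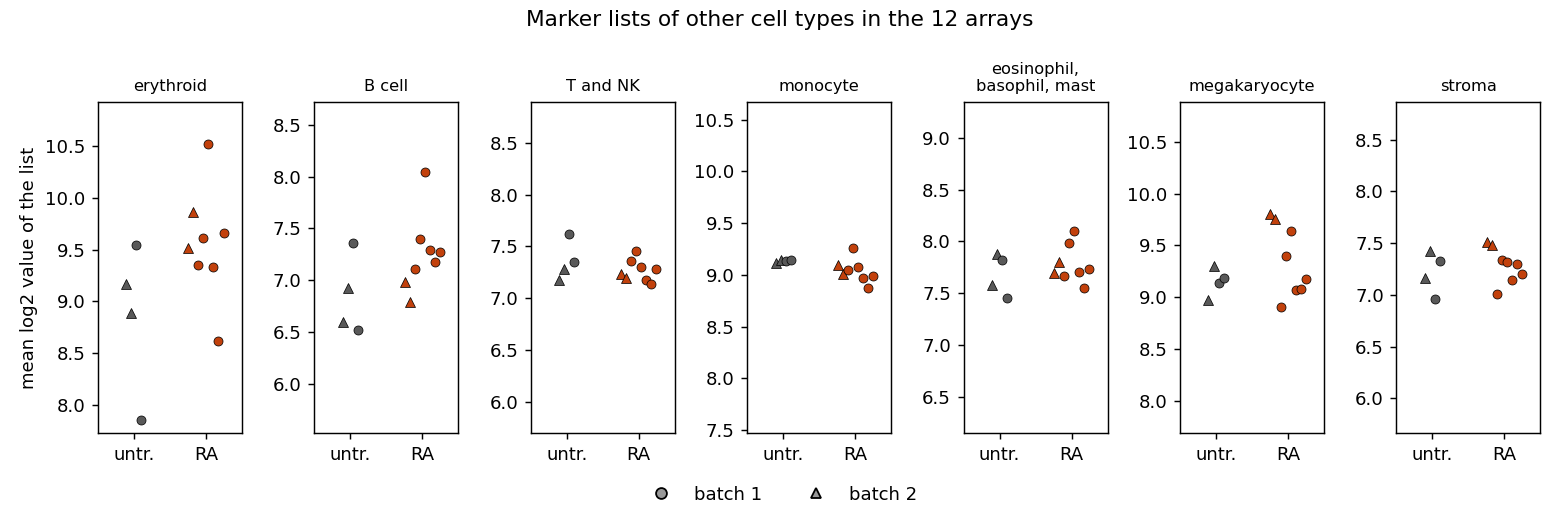
Mean log2 value (y axis, equal span in each panel) of 7 marker lists of other cell types in the 4 untreated (grey) and 8 RA (orange) arrays, with circles for batch 1 and triangles for batch 2. Groups overlap in every panel, and the erythroid list has the widest spread, from 7.85 to 10.52.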

How the data were processed

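Bone marrow RNA was hybridised to Affymetrix Mouse Gene 1.0 ST arrays, 1 array per sample. The deposited values are log2 intensities, and per the submitters' processing notes the authors used RMA and the affy package; neither versions nor the probe set definition is given in the sources used here. Of 35556 probe sets, 21789 have 1 gene symbol in the platform annotation, 1621 have several and 12146 are not listed; the probe set with the highest mean stood for a gene, giving 19938 genes. Arrays were grouped by their labels. limma 3.58.1 in R 4.3.3 was fitted over the 36 transgenic arrays, with group and batch terms and 27 residual degrees of freedom, moderated by eBayes and adjusted by Benjamini-Hochberg over all genes. The number of arrays limits the precision. The code was tested on simulated data. Named were the 20 largest rises and falls, up to 5 members of each of 48 lists with the largest moderated statistic and the 5 largest differences each way between times and fusions; clone and predicted names, histone clusters, olfactory receptors, receptor segments and small nucleolar RNAs were left out. The members and lists were chosen with earlier results of these data known. Of 1287 list genes, 1184 were analysed. Alternatives changed the arrays fitted, batch handling, controls, normalization, filter, spread prior, array weights, probe set choice and single arrays.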

Additional observations from a re-analysis of the deposited data

Results flagged for a closer look

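For 206 sets of gene values and 96 sets of list means (1 set per group of arrays), the gap between the outermost array and its nearest neighbour was set against Dixon's 95% limit, and 11 gene sets and 8 list sets passed it; chance alone marks about 1 in 20. Among the untreated arrays, array 1 stood apart with 8.89 for Cebpa (next 9.17), 8.87 for Spred2 (next 8.53) and 8.36 for Slco4c1 (next 7.36). Untreated array 3 read 10.34 for Kcnj2 (next 10.75) and 10.96 for Olfm4 (next 11.30), and untreated array 4 read 5.74 for Rarb (next 5.56). Among the RA arrays, array 3 was low for Ccl6 at 10.22 (next 10.94), array 5 was low for Nt5e at 9.80 and for Fcgr2b at 11.48, and array 4 was high for Ms4a4c at 8.36 and low for Mdm2 at 9.57.

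Untreated array 1 also stood apart in the mean of the list of interleukin 1, Toll and NF-kB signalling (8.41), heat shock and chaperonin genes (10.47), mitosis (10.40) and the PML nuclear body (10.02). Untreated array 3 did so for the Myc network (9.48) and untreated array 4 for purine and pyrimidine synthesis (9.72). RA array 5 was low for the mitochondrial ribosome (8.66, next 8.80), and RA array 3 was high for heat shock and chaperonin genes (10.46, next 10.32).

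The RA effect differed between 12 h and 6 h (limma, 12 h minus 6 h) by 1.38 for Olfm4, 2.46 for Il1f9, 1.87 for Slco4c1, -1.22 for Id1 and -1.04 for Lrrc8b. It differed between the fusions at 6 h (limma, PML/RARA minus PLZF/RARA) by 3.18 for Suox, 2.14 for Ccl6, 2.08 for Fcgr4, 2.02 for Cd200r1 and 1.96 for Bhlha15, and by -1.95 for Per1, -1.61 for Klf9, -1.57 for Rpp25 and -1.49 for Cntnap1.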

How the results depend on the processing

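The RA effect at 6 h was called for 2860 genes, 1799 within batch 1, 700 within batch 2, 5639 with array weights, and 1774 (without untreated array 4) to 3120 (without RA array 3) when single arrays were left out. The other alternatives for it gave 2833 to 4168 calls, and the count of calls with at least 1.5-fold change, 821, stayed within 1.5 times under every alternative (568 to 931). The batch difference was called for 0 genes under all alternatives except 1 gene without untreated array 4. The difference between 12 h and 6 h, 46 genes, was 0 within batch 1, 728 with array weights, 108 without RA arrays 3 and 4 together (a setting chosen after seeing the data), and 19 to 83 with single arrays left out. The difference between the fusions, 302 genes, was 119 within batch 1, 489 with array weights and 129 to 381 with single arrays left out. The cause of these moves was not tested. For 261 named genes, 6506 alternative values were computed, of which 6120 kept their side of the threshold, 256 lost the call, 130 gained one and 0 changed sign where either value was called. In 4 genes that were not called, Ms4a1, Il2rb, Il5ra and Esam, the sign changed under 1 alternative each. No paired analysis was possible because the labels give every array the same replicate number. Levels near background were not separable from it, since the deposited table gives no detection call.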
